A study of Mus musculus with 12 samples.

Results

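The genes described here are 32 genes of myelin and of the oligodendrocyte lineage, taken by name, with earlier results of these data known. They were followed across 12 expression arrays of mouse forebrain that compared Qkf mutants with wild types. Kat6b, known also as Qkf, codes for an enzyme that acetylates histones. All animals were of strain 129/Sv, and the mutants were homozygous (gt/gt in the labels). The 4 groups of 3 arrays were dorsal cerebral cortex of adult wild-type males (155, 112 and 101 days old), the same tissue of adult mutant males (155, 112 and 99 days), and dorsal telencephalon of wild-type and of mutant E12.5 embryos, whose sex the labels do not give. Each adult array carried its own mouse number. Among the embryos, wild type 1 and mutant 1 came from a first pair of parents and the other 4 from a second pair, and the labels used here do not say whether an array held 1 embryo or several. The labels name no cell type to which the mutation was limited. These are whole-tissue arrays, in which fewer cells of a type and less RNA per cell cannot be told apart.

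Of the 32 genes, 31 had at least 1 probe set that carries only their symbol, with 67 such probe sets in all. A probe set is a group of short array probes against one transcript. A probe set was used if its log2 value was over 4 on at least 3 of the 12 arrays, and the probe set with the highest mean stood for its gene. That left 52 probe sets and 27 genes of the lineage among 11449 genes kept in all. The genes below this limit were Gjb1, which encodes the gap junction protein connexin 32 of myelinating glia, the transcription factor genes Sox8 and Nkx6-2, and Enpp6, a marker of newly forming oligodendrocytes. Trf, which encodes the iron carrier transferrin, was represented on a probe set of several symbols and was not analysed here. Values are log2 values with a lowest possible value of 2.19 on every array, so a difference from a value near 2.19 understates the change. Values of different genes come from different probes and their levels were not compared, so that only differences between arrays are set side by side.

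Oligodendrocytes are the glial cells that wrap axons in myelin, the lipid-rich sheath that speeds conduction. They arise from dividing precursors that carry the PDGF receptor alpha and the NG2 proteoglycan, stop dividing, pass through a short premyelinating stage and then switch on the genes of the sheath under the transcription factors Sox10 and Myrf. In the mouse forebrain the earliest precursors come from the ventral telencephalon, cortical precursors follow later, and the cortex becomes myelinated only after birth.

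The 27 measured genes fall into 5 roles. The 15 genes of mature oligodendrocytes encode sheath proteins (Mbp, Mal, Mobp, Mog, Mag, Cnp, Cldn11, Opalin, Ermn, Tspan2), enzymes of myelin lipids and metabolism (Ugt8a, Fa2h, Aspa, Qdpr) and the regulator Myrf. The 3 precursor genes are Pdgfra, Cspg4 and Tnr, and the 3 genes of the transition are Gpr17, Bcas1 and Lpar1. The lineage transcription factors are Sox10, Olig1, Olig2 and Nkx2-2, and Cntn2 and Nfasc encode adhesion proteins of myelinated axons and nodes.

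Since the mature genes share known regulators, the DNA before their start sites was read for those factors' short motifs. The RefSeq table used here lists a promoter window, from 250 bases before the start to 50 bases after it in assembly GRCm38.p6, for 24 of the 32 genes. The searched MYRF motif was CTGGCAC or CTGGTAC and the searched SOX motif was ACAAAG or ACAATG, each on either strand. At least 1 MYRF match stood in windows of 5 genes, Mog, Mag, Cnp, Opalin and Lpar1, and in 6 of the 33 windows of the listed genes (18.18%), against 7.096% of all 32851 windows in the table. A SOX match stood in 14 of the 33 windows (42.42%), against 28.6% of all windows. A match is a string of letters and shows no binding. The 4 mature genes with a MYRF match are printed with Tnr, the precursor gene with the lowest p in the adult comparison. All run 5′ to 3′ on the strand of the gene, with the motif matches in capitals. Mog encodes a glycoprotein of the outer sheath surface, and its window lies at chr17:37023349-37023648 on the minus strand. Mag encodes the adhesion protein of the inner sheath surface (chr7:30914814-30915113, minus strand). Cnp encodes the cyclic nucleotide phosphodiesterase of uncompacted myelin (chr11:100574689-100574988, plus strand). Opalin encodes a membrane glycoprotein of oligodendrocytes (chr19:41077064-41077363, minus strand). Tnr encodes the matrix protein tenascin-R (chr1:159523519-159523818, plus strand).
Mog: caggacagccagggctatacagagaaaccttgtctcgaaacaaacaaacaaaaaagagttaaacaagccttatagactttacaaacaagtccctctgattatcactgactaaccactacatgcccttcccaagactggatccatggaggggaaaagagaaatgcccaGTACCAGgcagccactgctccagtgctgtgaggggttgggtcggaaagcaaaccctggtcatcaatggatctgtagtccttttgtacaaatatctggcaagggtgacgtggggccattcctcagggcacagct
Mag: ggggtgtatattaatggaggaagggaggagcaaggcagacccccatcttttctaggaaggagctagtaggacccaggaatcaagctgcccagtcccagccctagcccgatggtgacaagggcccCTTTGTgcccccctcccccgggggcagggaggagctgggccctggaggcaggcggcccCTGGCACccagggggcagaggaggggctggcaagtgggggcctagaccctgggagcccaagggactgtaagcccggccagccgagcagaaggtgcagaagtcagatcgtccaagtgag
Cnp: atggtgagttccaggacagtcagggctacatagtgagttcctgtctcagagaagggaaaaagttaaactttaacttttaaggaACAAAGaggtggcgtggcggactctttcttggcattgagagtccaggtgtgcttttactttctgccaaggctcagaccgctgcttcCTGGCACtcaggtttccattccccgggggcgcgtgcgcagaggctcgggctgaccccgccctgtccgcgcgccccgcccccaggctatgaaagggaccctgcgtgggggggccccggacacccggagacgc
Opalin: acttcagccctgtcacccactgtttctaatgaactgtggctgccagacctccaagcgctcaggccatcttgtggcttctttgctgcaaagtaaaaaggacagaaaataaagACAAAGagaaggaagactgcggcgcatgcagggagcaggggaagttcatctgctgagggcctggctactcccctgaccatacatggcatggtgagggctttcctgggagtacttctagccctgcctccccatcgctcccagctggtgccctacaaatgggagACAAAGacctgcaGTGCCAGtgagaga
Tnr: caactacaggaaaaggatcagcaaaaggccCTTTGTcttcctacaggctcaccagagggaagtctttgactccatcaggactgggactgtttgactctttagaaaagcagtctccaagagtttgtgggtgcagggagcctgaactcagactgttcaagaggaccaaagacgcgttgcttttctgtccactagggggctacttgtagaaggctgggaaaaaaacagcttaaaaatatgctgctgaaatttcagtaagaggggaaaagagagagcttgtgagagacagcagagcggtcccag
The first base of the MYRF match lay 83 bases before the start in Mog, 68 in Mag and 81 in Cnp, whereas the match of Opalin lay after the start. Tnr held a SOX match 220 bases before its start and no MYRF match in this window.

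The label check and the makeup of the tissue were read first. Kat6b fell in mutants of both stages, from 9.58 ± 0.21 (SD, n = 3) to 7.11 ± 0.17 (n = 3) in adults (limma adjusted p = 0.017) and from 11.37 ± 0.08 to 7.06 ± 0.77 in embryos (limma adjusted p = 0.00019). All 27 lineage genes were over 4 on all 6 adult arrays, while in embryos 13 were over 4 on all 6 arrays, 10 on none and 4 on some. Adult arrays carried neuronal and astrocyte markers at high levels, and the embryonic dorsal genes Eomes and Neurog2 and the embryonic globin genes Hbb-y and Hba-x stood at the floor on all 6. Adult mutant 3 stood apart in Ttr, a gene of the choroid plexus, at 15.16 against 6.78 to 9.18 on the other adult arrays. The difference between 3′ and 5′ actin probe sets, a sign of RNA quality, was 1.06 to 1.13 in adult wild types and 1.91, 1.47 and 1.09 in adult mutants 1, 2 and 3. In embryos, 4 of 5 measured ventral genes (Dlx1, Dlx2, Dlx5 and Gad1, not Lhx6) were higher in both embryos of the first cross than in the other 4, as taken up with Olig2 below. The array names in the labels carry a number that differs between all adult and all embryonic arrays and again for mutant embryo 1, so stage and this number cannot be told apart.

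In adult cortex none of the 27 lineage genes passed the test between mutants and wild types (limma, Benjamini-Hochberg adjusted p under 0.05 over 11449 genes), where the same test called 6 of all 11449 genes (0.0524%). By unadjusted p, 4 of the 27 lay under 0.05 (Mal, Myrf, Sox10 and Tnr), against 520 of 11449. The measured differences nevertheless lay mostly on one side: 22 of 27 were negative, with a median of -0.22 on the log2 scale, whereas over all genes 40.05% were negative and the median was 0.03. All 15 mature genes had a negative difference (median -0.31, range -0.53 to -0.12), the 3 genes of the transition were negative, and the precursor genes were divided. The 3 mutant arrays all lay below the 3 wild types for 3 of the 27 genes, Cnp, Myrf and Sox10, against 2.66% of all genes. They all lay above for 1 gene, Tnr, against 6.73% of all genes. As genes of one cell type vary together between animals, the 15 mature genes are not 15 independent observations of the genotype.

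**Figure D1:**
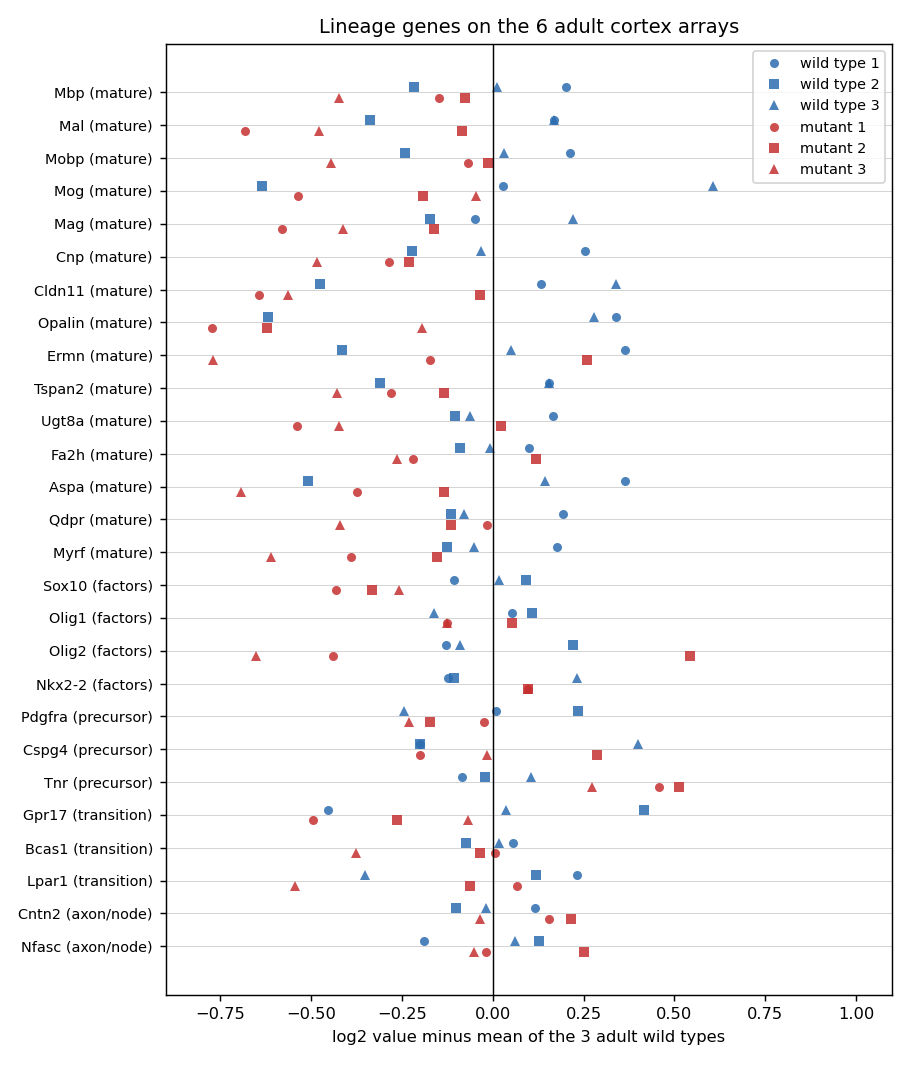
Each row is a lineage gene with its role, and each symbol 1 adult array, as its log2 value minus the mean of the 3 adult wild types of that gene (horizontal axis, log2 units; blue wild types, red mutants; circle, square and triangle replicates 1, 2 and 3). Mutants lie mostly to the left among the mature genes, with wild type 2 among them, and to the right for Tnr.

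Among sheath genes, Mbp, which encodes the myelin basic protein that compacts the sheath, read 14.44, 14.02 and 14.24 on the wild-type arrays 1 to 3 and 14.08, 14.16 and 13.81 on the mutant arrays 1 to 3. The groups overlapped, with wild type 2 below mutants 1 and 2, and the difference was -0.22 (SE 0.29). Mal, which encodes a small proteolipid of myelin membranes, read 10.61, 10.10 and 10.61 in wild types and 9.75, 10.35 and 9.96 in mutants. Wild types 1 and 3 were the highest and wild type 2 lay within the mutants, and the difference of -0.42 (SE 0.17) did not pass (limma adjusted p = 1). Cnp read 12.93, 12.45 and 12.64 in wild types and 12.39, 12.45 and 12.19 in mutants. The gap between the groups was below what 2 decimals show, at wild type 2 and mutant 2, and the difference was -0.33 (SE 0.16, limma adjusted p = 1). Opalin differed by -0.53, with a 95% interval from -1.24 to 0.18. The others of this kind, Mobp (-0.18), Mog (-0.26), Mag (-0.38), Cldn11 (-0.41), Ermn (-0.23) and Tspan2 (-0.28), each had an overlap between the groups on the probe set that stood for the gene.

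Ugt8a, whose enzyme makes the galactolipid galactosylceramide, read 9.90, 9.62 and 9.67 in wild types and 9.19, 9.75 and 9.30 in mutants. Mutant 2 was higher than wild types 2 and 3, and the difference was -0.31 (SE 0.18, limma adjusted p = 1). Aspa, which encodes the enzyme that splits N-acetylaspartate, differed by -0.40, with a 95% interval from -1.07 to 0.27. Fa2h, whose enzyme hydroxylates the fatty acids of myelin lipids, differed by -0.12, and Qdpr, which encodes a pteridine reductase, by -0.18.

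The regulator Myrf, which the sheath genes require, read 5.81, 5.50 and 5.58 in wild types and 5.24, 5.48 and 5.02 in mutants. All mutants lay below all wild types, with the narrowest gap between mutant 2 and wild type 2. The difference was -0.38 (SE 0.12, 95% interval -0.66 to -0.11) and did not pass (limma adjusted p = 1). Sox10, which acts in all stages of the lineage, read 7.03, 7.23 and 7.16 in wild types and 6.71, 6.81 and 6.88 in mutants. Here too all mutants lay below, but wild type 2 was the highest array, unlike in the sheath genes, and the difference was -0.34 (SE 0.13, 95% interval -0.62 to -0.06, limma adjusted p = 1). The other factors gave -0.07 for Olig1, -0.18 for Olig2 and 0.10 for Nkx2-2, all with overlapping groups.

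The precursor genes did not share a direction. Pdgfra, the receptor for the mitogen of precursors, read 9.15, 9.38 and 8.90 in wild types and 9.12, 8.97 and 8.92 in mutants. The mutants lay within the range of the wild types, and the difference was -0.14 (SE 0.15). Cspg4, which encodes the NG2 proteoglycan, read 4.15, 4.15 and 4.75 in wild types and 4.15, 4.64 and 4.34 in mutants, with a difference of 0.02 (SE 0.19). Its value of 4.15 was the same on 3 arrays and lay just over the limit of 4. Tnr, whose protein is made by precursors, oligodendrocytes and some neurons, read 7.56, 7.62 and 7.75 in wild types and 8.10, 8.16 and 7.92 in mutants. Every mutant lay above every wild type, the reverse of Cnp, Myrf and Sox10. The difference of 0.41 (SE 0.10, 95% interval 0.20 to 0.62), a 1.33-fold higher level, had the lowest p of the 27 but did not pass (limma adjusted p = 0.60). Across the other settings tried, its adjusted p ran from 0.072, with weights for the arrays, to 1.

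Among the genes of the transition, Gpr17, a receptor of committed precursors, differed by -0.27, Bcas1, a marker of newly myelinating cells, by -0.13, and the lysophosphatidic acid receptor gene Lpar1 by -0.18. The axonal genes Cntn2 (0.11) and Nfasc (0.06) differed little in either direction. Further probe sets of the same genes read the same way in the mature class: all 33 kept probe sets of its 15 genes were negative, with a median of -0.28, and none of the 8 genes with several probe sets had probe sets of both signs. Their sizes and overlaps varied. The second probe set of Ugt8a gave -1.26 and the fourth of Mobp -0.76 (limma adjusted p = 0.97 and 0.91 over all probe sets). Both had every mutant below every wild type, as had further probe sets of Tspan2 and Qdpr, the last by 10.80 against 10.81. These were 4 of the 18 further probe sets of mature genes. No share over all probe sets was taken for this count or for the signs. The second probe set of Mal gave -0.60. The separation of Cnp and of Sox10 was not seen on their other probe sets, which gave -0.05 and -0.21 for Cnp and -0.09 for Sox10. Over all 52 probe sets 44 were negative, and Nfasc alone had both signs.

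The single arrays placed this difference in some animals more than others. The mean over the 15 mature genes was 9.83, 9.33 and 9.76 on wild-type arrays 1 to 3 and 9.26, 9.54 and 9.20 on mutant arrays 1 to 3. The group means were 9.64 ± 0.27 (SD, n = 3) and 9.33 ± 0.18 (n = 3), a difference of -0.31, and the groups overlapped. Wild type 2 was the lowest of the 3 wild types in 15 of 15 genes, and mutant 2 was the highest of the 3 mutants in 12 of 15. Wild type 1 was the highest of all 6 arrays in 10 genes and mutant 3 the lowest in 9.

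These 2 arrays, wild type 2 and mutant 2, both came from animals of 112 days. Between them the mutant was lower in 3 of 15 mature genes, with a median difference of 0.18. Between the animals of 155 days the mutant was lower in 15 of 15 (median -0.54), and between those of 101 and 99 days also in 15 of 15 (median -0.56). Over all 11449 genes the mutant was lower in 38.2%, 40.93% and 47.35% at 155, 112, and 101 or 99 days. There was 1 animal of each genotype at an age, and a dependence on age was not tested. Leaving out 1 adult array at a time moved the median of the 15 genes between -0.47 (without mutant 2) and -0.22 (without wild type 1). Every gene of the 15 kept a negative difference in 4 of these 6 cases, and 14 of 15 did without wild type 3 and without mutant 3.

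**Figure D2:**
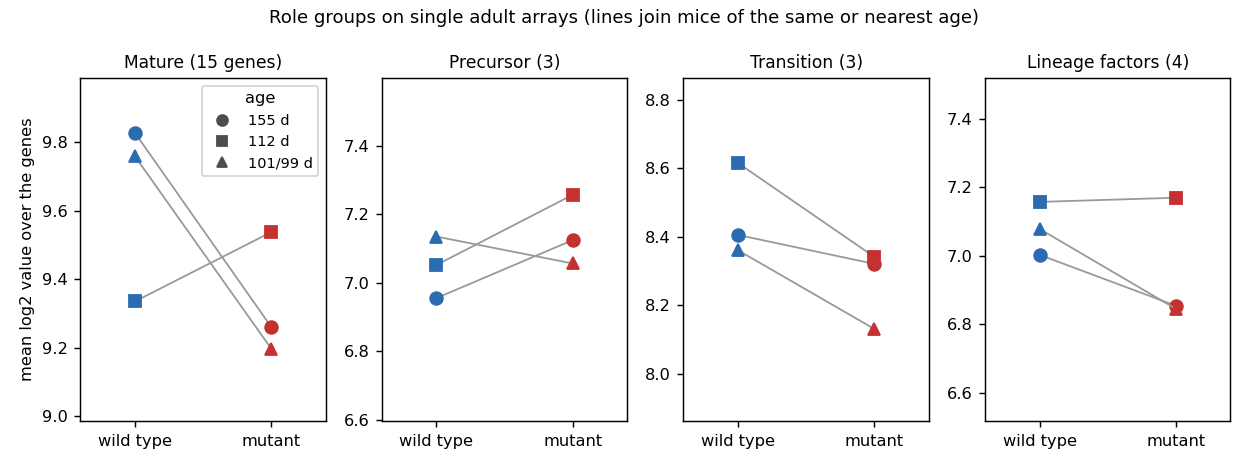
Each panel gives the mean log2 value over the genes of a role (vertical axis) on single adult arrays, wild types in blue at the left and mutants in red at the right, and grey lines join animals of the same or nearest age. The mature mean is lower in the mutant at 155 days and at 101 or 99 days and higher at 112 days (9.33 against 9.54), and each panel spans 1 log2 unit.

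The contrast of mature against precursor genes was read on each array as the mean of the 15 minus the mean of the 3. Only its differences between arrays carry meaning. It was 2.87, 2.28 and 2.62 in wild types and 2.14, 2.28 and 2.14 in mutants. Wild types averaged 2.59 ± 0.30 (SD, n = 3) and mutants 2.19 ± 0.08 (n = 3), a difference of -0.41. Wild type 2 and mutant 2 nearly coincided, and the other 2 mutants lay below all wild types. The precursor mean itself was 6.96, 7.05 and 7.14 in wild types and 7.12, 7.26 and 7.06 in mutants, a difference of 0.10 that was within the overlap of the groups. The further lists described below gave a smaller difference of the same kind, -0.11 between 25 mature and 14 precursor genes, with overlapping groups. Of the 3 precursor genes, Tnr had the largest difference (0.41), against -0.14 for Pdgfra and 0.02 for Cspg4. The means of the other roles differed by -0.20 for the transition, -0.12 for the lineage factors and 0.09 for the axonal genes.

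Markers of other cells were set beside these values. Astrocyte markers were higher in mutants in 7 of 8 genes (median 0.10, none past the test), and their summed log2 level ran from 15.50 to 15.70 in wild types and from 15.65 to 15.80 in mutants. Endothelial markers were higher in 4 of 5 (median 0.22, none past the test), with summed levels of 9.43 to 9.80 and 9.75 to 9.95. Neuronal markers were higher in 4 of 7 (median 0.05), at 16.37 to 16.49 and 16.39 to 16.45, and microglial markers in 4 of 7 (median 0.01), at 11.01 to 11.31 and 10.94 to 11.46. Choroid plexus markers were higher in 3 of 3, at 7.09 to 9.23 and 7.83 to 15.16, with the top value from mutant 3. Wild type 2, the lowest wild type for the mature genes, had the highest mean of striatal markers, 7.66 against at most 7.26 on the other adult arrays. The part of these markers, of the actin difference above and of dissection in the differences of the mature genes was not tested.

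In the embryonic telencephalon also, none of the 27 genes passed the test between mutants and wild types, against 4 of 11449 genes (0.0349%). Most genes of the sheath were at the bottom of the scale there. Mal, Mobp, Mog, Mag, Ermn, Olig1, Nkx2-2, Cspg4, Tnr and Gpr17 were at or below 4 on all 6 embryonic arrays, and these 10 entered the fit through their adult values. For 17 of the 27 genes at least 2 embryonic arrays carried exactly the same value, as for Bcas1 at 6.08 on all 6 and Myrf at 4.51 on 4, with 4.38 as its lowest. Such repeats were not always the lowest value of the gene, and no difference between genotypes is read from them.

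Of the 15 mature genes, 9 were lower, 5 higher and 1 equal in mutant embryos, with a median of -0.04, against -0.01 over all genes. Fa2h had the lowest p. It read 4.38, 4.31 and 4.18 in wild types and 4.73, 4.58 and 4.97 in mutants. All mutants lay above all wild types, as in 3.23% of all genes, while no lineage gene had all mutants below, against 5.06%. The difference was 0.47 (SE 0.13, 95% interval 0.18 to 0.77) and did not pass (limma adjusted p = 0.56).

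The next genes by p were low throughout. Aspa read 4.21, 3.73 and 3.15 in wild-type and 3.15, 2.49 and 3.18 in mutant embryos, a difference of -0.76 (SE 0.31, limma adjusted p = 1). Opalin read 3.20, 2.73 and 3.25 in wild types and 3.81, 4.37 and 3.20 in mutants, a difference of 0.73 (SE 0.32, limma adjusted p = 1). The groups overlapped for each. Mobp, which encodes an abundant protein of compact myelin, read 2.83 in all 3 wild types and 2.83, 2.35 and 2.19 in mutants (-0.37, SE 0.18, limma adjusted p = 1). On the probe set that stood for it, Mbp read 4.28, 3.15 and 3.15 in wild types and 3.24, 2.53 and 3.15 in mutants, with wild type 1 apart from the rest.

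Of the precursor genes only Pdgfra could show a separation, and it gave none. Cspg4 and Tnr were at or below 4 on all 6 embryonic arrays, and no effect is read from their values. Pdgfra, which was well over the limit, read 7.42, 7.58 and 7.96 in wild-type and 7.42, 7.50 and 7.44 in mutant embryos, a difference of -0.20 (SE 0.15). Cspg4 read 3.27, 2.97 and 3.27 against 3.27, 3.69 and 3.47 (0.31, SE 0.19). Tnr read 2.19, 2.31 and 2.29 against 2.19 on all 3 mutant arrays, which is the floor, and the difference was -0.07.

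In embryos Olig2 and Cldn11 differed more by parents than by genotype. Olig2, the basic helix-loop-helix factor of ventral progenitors and of the oligodendrocyte lineage, read 5.99 and 5.06 in wild type 1 and mutant 1, the embryos of the first cross. It read between 2.34 and 3.39 in the other 4. Dlx2, a factor of ventral progenitors of interneurons, divided the embryos in the same way, at 9.04 and 8.43 in the first cross and from 3.20 to 5.80 in the second. Cldn11, which encodes the claudin of myelin tight junctions, did the opposite, at 5.90 and 6.44 in the first cross and from 7.87 to 8.12 in the second. Dcn, a gene of fibroblasts and meninges, went with it, at 5.17 and 5.85 against 7.40 to 7.63. Both embryos of the first cross were lower than the other 4 for 5 genes, Cldn11, Pdgfra, Lpar1, Cntn2 and Nfasc, against 16.3% of all genes. Both were higher for 5, Mbp, Tspan2, Ugt8a, Qdpr and Olig2, against 11.6%. No further kept probe set of Mbp, Tspan2, Ugt8a or Qdpr showed this split. Lpar1, Cntn2 and Nfasc each had a further probe set that split alike and another that did not. The closest values of the crosses were 3.24 and 3.15 for Mbp, both under 4, and 7.42 and 7.44 for Pdgfra. Splits by parents were frequent over all genes, so the counts are not read as particular to the lineage. Parents and whatever else differed between those preparations, the extent of the dissection included, cannot be told apart. Without the first cross, mutant embryos were lower in 10 of the 15 mature genes, those at or below 4 included, and again none of the 27 passed.

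**Figure D3:**
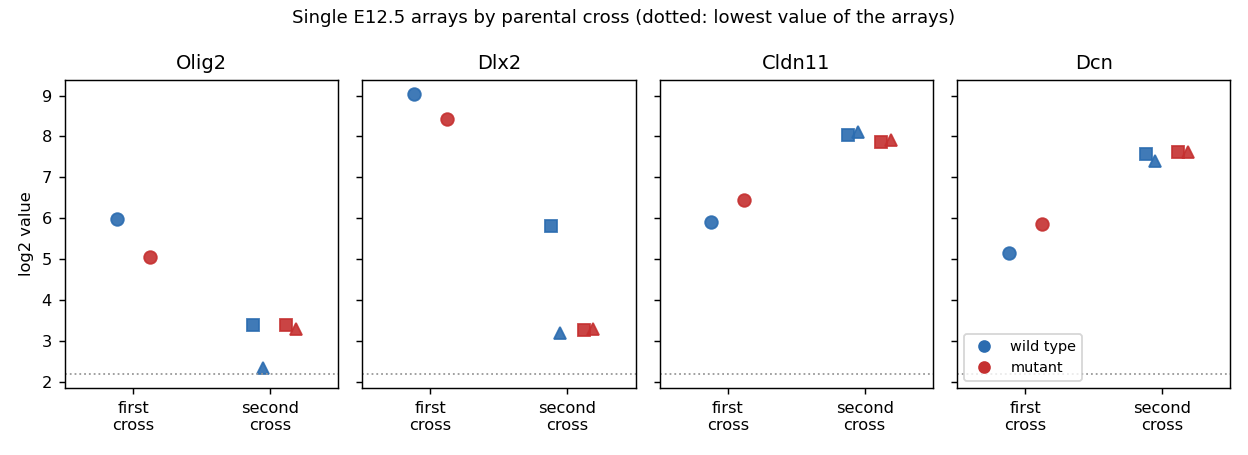
Log2 values (vertical axis) of Olig2, Dlx2, Cldn11 and Dcn on single embryonic arrays, with the first cross of 2 embryos at the left and the second of 4 at the right in each panel (blue wild types, red mutants). Olig2 and Dlx2 are higher and Cldn11 and Dcn lower in both embryos of the first cross, whatever the genotype.

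The effect of the mutation was compared between the stages directly. No gene of 11449 had a different effect in adults and embryos past the test (limma, 0% called), while 630 had an unadjusted p under 0.05. No effect of the 10 genes at or below 4 in all embryos, Tnr among them, could be measured at E12.5, and none was compared between the stages. Fa2h, which was over 4 on all 12 arrays, had an adult effect below the embryonic one by the measured values (-0.60, 95% interval -1.01 to -0.18), and the difference did not pass (limma adjusted p = 0.80).

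Between E12.5 and adulthood the genes of the sheath differed far more than between genotypes. Mbp was 10.71 higher on the log2 scale in adult than in embryonic wild types (SE 0.29) and 11.05 higher in mutants. Its other probe sets rose by 2.56 to 12.02 in wild types. Those that rose by 2.56 and 3.96 read 6.49 to 6.66 and 4.47 to 5.43 in wild-type embryos, over the limit of 4. The size of the rise and the embryonic level of Mbp thus depend on the probe set. Mobp was 8.35 and 8.55 higher, Mal 8.06 and 7.68, Olig1 7.42 and 7.52, and Tnr 5.38 and 5.87, in wild types and mutants in turn. On the probe sets that stood for them, these genes were at or below 4 on all or nearly all embryonic arrays. They entered the fit through their high adult values, which fixed that they differ, so the values are a description and no p is given. The count is therefore restricted to the 13 genes that were over 4 on all 12 arrays. Bcas1, Myrf and Sox10 among them had repeated embryonic values, so a value over 4 need not be a measured embryonic level. Of the 13, 11 rose from embryo to adult in wild types, Bcas1, Myrf and Sox10 among them, against 38.4% of all genes called higher. This share and those that follow are over all 11449 genes kept under the looser filter, an unlike set. Lpar1 fell, against 43.0% called lower, and Cntn2 did not pass. Mutants gave the same numbers, 11 higher against 39.5% of all genes and 1 lower against 42.2%. The tested arrays of mutants are other arrays than those of wild types, and adults differ from embryos in age, region dissected and cell makeup together.

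Among the 7 mature genes of these 13, the median rise was 3.08 in wild types and 2.84 in mutants. Over all genes, under the looser filter, it was -0.08 and -0.05. Cnp rose by 4.68 (SE 0.16) in wild types and 4.64 in mutants. On this probe set Cnp read 7.81 to 8.28 in wild-type embryos, but on its other 2 kept probe sets it read 4.07 to 4.28 and 3.31 to 3.49 there, so an embryonic level of Cnp rests on a single probe set. Fa2h rose by 3.67 and 3.07, Ugt8a by 3.22 and 3.07, and Tspan2, which encodes a tetraspanin of early myelin, by 3.08 and 2.84. Qdpr rose by 1.93 and 1.69, Cldn11 by 1.85 and 1.38, and Myrf by 1.17 and 0.74, with the repeated embryonic value given above. Cldn11 was the least certain of these (SE 0.57 in each), with the crosses apart in embryos.

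The precursor receptor gene Pdgfra rose by 1.49 in wild types and 1.55 in mutants (SE 0.15), less than the median of the mature genes. Sox10 rose by 2.48 and 2.24, Bcas1 by 4.43 and 4.29 from 6.08 on all 6 embryonic arrays, and Nfasc by 1.32 and 1.61. The other probe set of Sox10 gave a smaller rise of 0.52 in wild types. The probe sets of Nfasc disagreed, with 3.37 and -0.21 in wild types on the other 2. Lpar1, which is also known from dividing cells of the embryonic cortical wall, went from 8.97, 9.42 and 9.65 in wild-type embryos to 8.53, 8.42 and 7.95 in wild-type adults. All adults lay below all embryos, all 3 of its probe sets were lower in adult wild types, and it fell by 1.04 (SE 0.23, limma adjusted p = 0.0012) in wild types and by 1.18 (limma adjusted p = 0.00046) in mutants. Cntn2, which encodes an axonal adhesion protein of growing axons and of the flanks of nodes, read 7.57, 8.23 and 8.09 in wild-type embryos and 8.19, 7.97 and 8.06 in wild-type adults. The difference was 0.11 (95% interval -0.27 to 0.49, limma adjusted p = 0.58), and in mutants it was 0.37 (limma adjusted p = 0.070). A second probe set gave -0.01 in wild types, but another gave -2.74 (limma adjusted p = 0.0021 over all probe sets), so the probe sets of Cntn2 disagree over the stages.

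**Figure D4:**
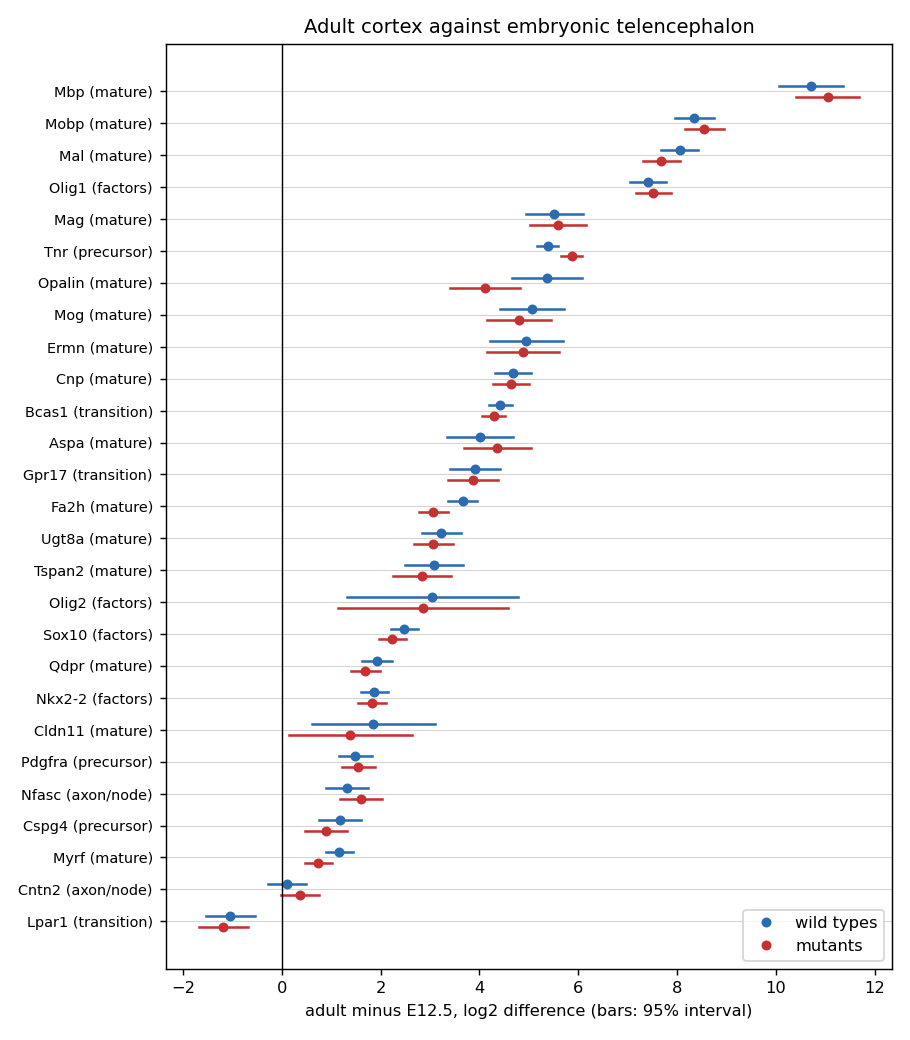
Adult minus E12.5 log2 difference (horizontal axis) of each lineage gene with its role, blue in wild types and red in mutants, with bars for the 95% interval. Mbp lies farthest to the right, at 10.71 and 11.05, Cntn2 lies near 0, and Lpar1 alone lies to the left.

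Other genes of the same biology were read from further lists chosen by known role, also with earlier results of these data known. Of 25 measured further genes of mature oligodendrocytes none passed between adult genotypes, and 19 were negative, with a median of -0.15. The lowest p belonged to Hapln2, which encodes a link protein of the nodal matrix (-0.70, SE 0.26), followed by Anln (-0.45, SE 0.24), Evi2a (-0.37, SE 0.19) and Tmem88b (-0.37, SE 0.24). Their mean on single arrays was 8.10, 7.77 and 8.03 in wild types and 7.83, 7.88 and 7.74 in mutants, again with wild type 2 lowest and mutant 2 highest within their groups. The mutant was lower in 21, 8 and 18 of the 25 at 155, 112, and 101 or 99 days. Of 14 measured further precursor genes 6 were positive and 8 negative, and none passed. Zfp536 differed by -0.55 (SE 0.26), the potassium channel gene Kcnj16 by -0.36 (SE 0.16), the matrix gene Matn4 by 0.43 (SE 0.34) and Rlbp1 by 0.57 (SE 0.64).

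Partners of myelin on the axon were divided evenly, with 7 of 14 positive and 7 negative in adults and none past the test. Of these, Sptbn4, the spectrin of nodes, differed by 0.25 (SE 0.24), the sodium channel gene Scn1a by 0.23 (SE 0.24), Epb41l3 by -0.20 (SE 0.16) and Nrcam by -0.13 (SE 0.11). Of 11 measured genes of signals that act on the lineage, 8 were negative and 3 positive, and none passed. They included the fibroblast growth factor receptor gene Fgfr2 (-0.25, SE 0.13), Igf1r (0.17, SE 0.12) and Igf1 (-0.26, SE 0.20). Bmp4 and Erbb2, both counted as negative, were under 4 on all 6 adult arrays and entered through the embryos. Their adult differences are not given, and no direction is read from the count.

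In mutant embryos none of these further genes passed either. Those of mature oligodendrocytes were 13 higher and 12 lower, the precursor genes 6 and 8, the axonal partners 9 and 5, and the signal genes 3 and 8. Genes under 4 on all 6 embryonic arrays are in these counts, such as Evi2a, Tmem88b, Kcnj16 and Kcna1. No direction is therefore read from the counts. The lowest p among the further genes belonged to the septin gene Septin4 (-0.90, SE 0.35, limma adjusted p = 0.92) and to the axonal contactin gene Cntn1 (-0.75, SE 0.29, limma adjusted p = 0.94).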

How the data were processed

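RNA of 12 mouse forebrain samples was measured on Affymetrix arrays of 45101 probe sets. The deposited values are log2 expression values, 1 per probe set and array, made by the authors with GCRMA, per the submitters' processing notes. The sources used here give no version or settings for it. On each array 29.4% to 30.9% of values were within 0.01 of the floor of 2.19. RNA was amplified with a 2-cycle kit, per the labels' protocols.

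Probe sets with 1 symbol in the platform annotation (34945; 932 had several, 9160 none) were named through gene IDs of RefSeq assembly GRCm38.p6. The filter left 20292 probe sets and 11449 genes. limma 3.58.1 (R 4.3.3) fitted 4 group means over all 12 arrays with 8 residual degrees of freedom. P-values were adjusted by Benjamini-Hochberg over all genes, two-sided, with a threshold of 0.05. Errors are limma's SE or the SD over 3 arrays. The fit was tested on simulated data. Embryos of the same cross correlated in their deviations from group means (0.51 in the first cross, 0.14 to 0.25 in the second, from the parents in the labels). Adults of like age did so at 0.19, -0.01 and 0.27, so the adult pairing was not clear. P-values of the main fit rest on a spread between arrays pooled over the 4 groups, and embryos of a cross were treated there as independent.

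The genes and lists were chosen with earlier results of these data known. Named with all values are the 6 genes with the lowest adult p, the 4 with the lowest embryonic p, the precursor genes and Mbp. From each further list up to 4 genes with the lowest p are named. Array number limits the precision. Alternatives varied the filter, probe sets, scaling, arrays, variance model and pairing.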

Additional observations from a re-analysis of the deposited data

How the results depend on the processing

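No lineage gene passed the test between genotypes, at either stage or in the difference between stages, under any of the alternatives run. For the 10 genes at or below 4 in all embryos this says nothing of E12.5 or of the difference between stages. The lowest adjusted p of a lineage gene was 0.072, for Tnr in adults with array weights (limma). The adult median over the 15 mature genes stayed negative in each alternative, though 1 of the 15 lost its negative sign without adult wild type 3 and without adult mutant 3. In embryos the median over all genes, -0.01, became 0.0047 without mutant 1 and 0.0007 without the first cross. With the mean of the probe sets 7 of the 15 mature genes, not 9, were negative (median 0.00), those at or below 4 included. The count over all genes moved. In adults the 6 calls became 1 with a log2 limit of 6, 0 with only the arrays of the stage, 3 with a trend and robust variance, 3 with the age pair as a block and 2 without the first cross, and 0 to 6 with 1 array left out. In embryos the 4 calls became 8 with a limit of 6, 7 with quantile normalization, 0 with only the arrays of the stage, 42 with array weights, 1 with the cross as a block and 18 without the first cross, and 3 to 13 with 1 array left out. For the difference between stages, 0 calls became 1 with no filter, with the mean of the probe sets, with quantile normalization and with median centring, 7 with array weights, and 0 to 1 with 1 array left out.

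The median over the mature genes in embryos, those at or below 4 included, ran from -0.188 to -0.0411 with 1 array left out. The median rise over the 7 mature genes measured at both stages was 2.71 in wild types and 1.78 in mutants with the mean of the probe sets, 3.29 and 3.05 without the first cross, and 3.01 in mutants with array weights. With 1 array left out it ran from 2.86 to 3.29 in wild types and from 2.59 to 3.05 in mutants. The pairing by age or parents changed no call of a lineage gene. The adult difference of mature minus precursor means ran from -0.56 to -0.27 with 1 array left out. With 3 arrays a group, and with most sheath genes near the floor in embryos, small differences between genotypes were not detectable.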
